A study of Mus musculus with 6 samples.

Results

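The mitochondrial ribosomal protein genes are the nuclear genes for the protein part of the ribosome that works inside mitochondria. The 76 members were the protein-coding genes among 19179 listed genes whose symbol is Mrpl or Mrps followed by a digit, 47 with large subunit symbols and 29 with small subunit symbols. A further 4 rows with such symbols are annotated as processed pseudogenes and were not counted. The mitochondrial ribosome translates the few messenger RNAs of the mitochondrial genome, all of which encode core subunits of oxidative phosphorylation. Its ribosomal RNAs come from the mitochondrial genome, whereas in mammals every protein is encoded in the nucleus, made in the cytosol and imported. The small subunit reads the messenger RNA and the large subunit joins amino acids and feeds the growing chain towards the inner membrane, and each subunit mixes proteins with bacterial counterparts and proteins found only in mitochondria.

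The libraries were made from clones of 4T1, a mouse mammary carcinoma line of BALB/C origin. Single cells were seeded in wells and grown for 14 days, after which clones were separated into 2 kinds. The tissue label breast cancer stem cell marks 3 libraries (stem-labelled clones) and the label breast cancer cell the other 3 (other clones). Both kinds shared the line, the strain and the culture, no treatment or genetic change is named for either, and the labels do not define how a clone was assigned to its kind. The labels speak of 10 clones of each kind and 3 independent experiments, and do not state how many clones entered a library. If the libraries came from pools or shared experiments, the spread between them may be partly technical. In bulk RNA, fewer cells with a transcript and less of it per cell cannot be told apart.

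Whole-library features differed between the groups. Reads assigned to genes numbered 21196572 to 22838870 in stem-labelled libraries and 15357608 to 16830762 in other libraries, and amounted to 0.658 to 0.757 and 1.23 to 1.53 of the totals implied by the deposited values. Values in RPKM, reads scaled by gene length and library total, therefore have different bases in the groups, and changes are also given after rescaling to the reads summed over genes. Changes over all genes also followed gene length, so values corrected for length and for GC content are given as well. Library preparation and counting cannot be told apart from the kind of clone. Of 6 epithelial markers, which summed to 928 to 1432 RPKM in stem-labelled and 2052 to 3705 RPKM in other libraries, the keratins Krt8 and Krt18 made up most. On the deposited scale Krt7, Krt18 and Krt19 fell, Cdh1 rose by 2.04, and Krt8 (-0.90) and Epcam (-0.03) did not pass. Epcam was called higher on rescaling (0.90), and Krt18 was not called after the correction for length and GC content (-0.70). Of 5 mammary stem cell markers tested, Itga6 rose by 1.0, Procr fell by 1.2 on the log2 scale and 3 did not pass. Rescaling gave 4 of the 5 higher and 0 lower, where 58.7% of all genes tested were higher. After the correction for length and GC content 1 was lower (Procr, -1.07) and 0 higher, with Itga6 at 0.05. Of 4 leukocyte markers listed, Cd68 held nearly all of the sum of 12.6 to 40.2 RPKM in stem-labelled and 6.09 to 29.5 RPKM in other libraries, and Ptprc, Itgam and Lyz2 stayed under 0.33 RPKM. The 4 endothelial markers summed to at most 0.12 RPKM and the 4 fibroblast markers to at most 3.38 RPKM in any library, almost all of it Pdgfra, and none of these genes was at 0 in all libraries.

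All 76 members passed the filter of at least 1 RPKM in at least 3 of the 6 libraries. In stem-labelled clones 46 of them fell, 1 rose and 29 did not pass the test (limma on log2(RPKM + 1), Benjamini-Hochberg adjusted p under 0.05 over the 10097 genes tested). Over all genes tested, 25.4% were called lower and 29.9% higher. Large subunit members gave 33 lower, 0 higher and 14 not called, and small subunit members 13 lower, 1 higher and 15 not called. The median log2 change was -1.15 for the large and -0.53 for the small subunit on the deposited scale, where the median of all genes was 0.11. Rescaling to summed reads moved the median of all genes to 0.86, the large subunit median to -0.25 and the small subunit median to 0.25, which turned the sign of the small subunit. Relative to the median of all genes the large and small subunits then lay at -1.11 and -0.61, against -1.26 and -0.64 on the deposited scale. The difference between the subunits was not tested, because the members share libraries and are not replicates of a condition. All 3 stem-labelled libraries lay below all 3 other libraries for 49 members, where 27.8% of all genes tested did so. They lay above them for Mrpl9, Mrps6 and Mrps2 (35.7% of all genes tested), and the groups overlapped for the remaining 24 members.

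**Figure D1:**
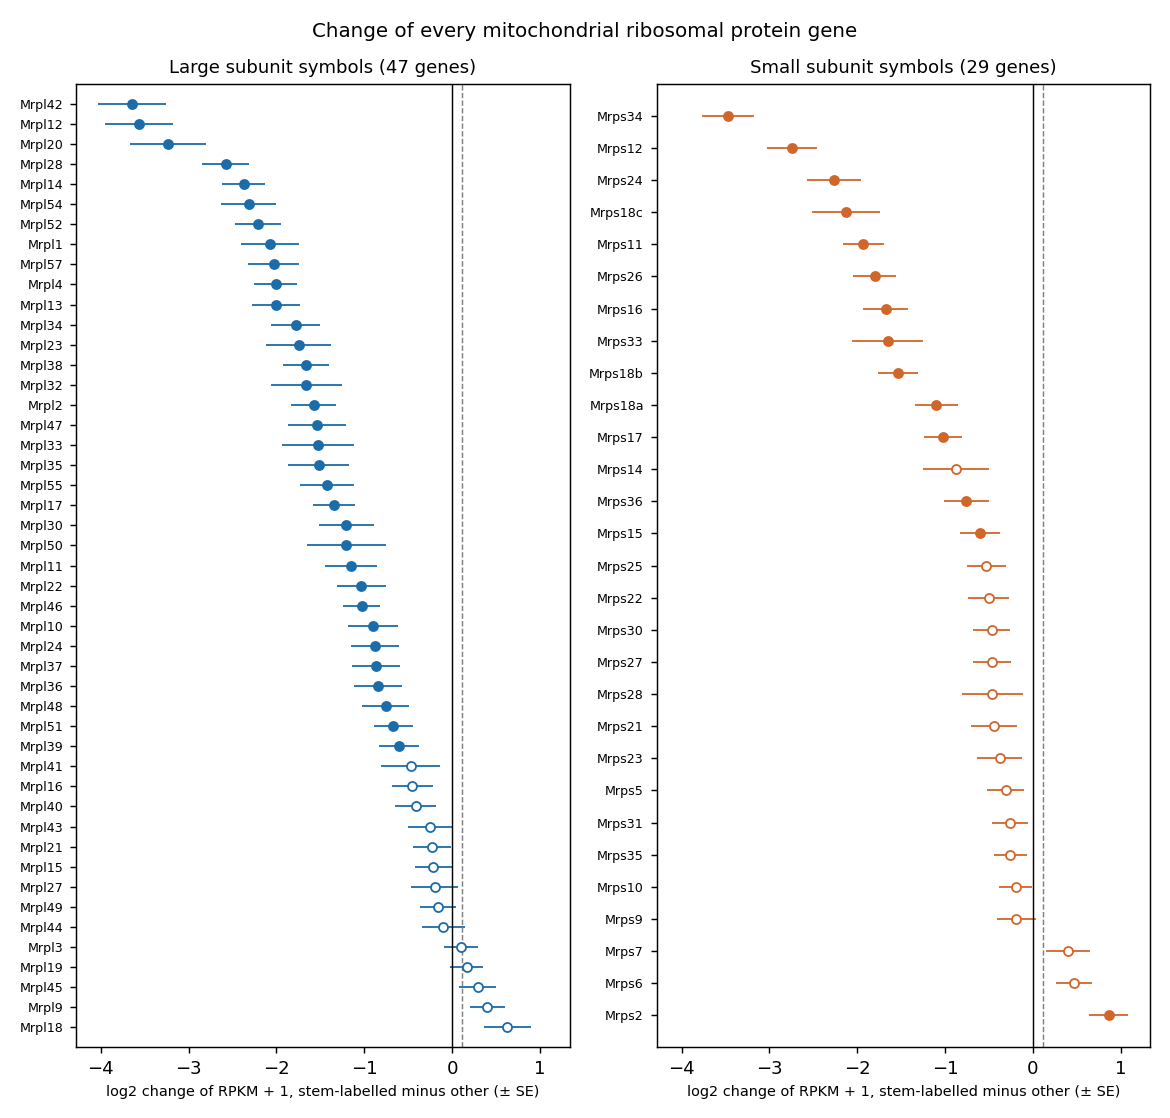
Log2 change of RPKM + 1, stem-labelled minus other clones, for every member, with large subunit symbols on the left and small subunit symbols on the right. Bars are standard errors, filled points are called at an adjusted p under 0.05, the solid line is 0 and the dashed line is the median of all genes tested at 0.11. Large subunit members run between -3.64 and 0.63 and small subunit members between -3.47 and 0.86, all on the deposited scale; on rescaling to summed reads the small subunit median turns to 0.25.

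Promoter sequences are shown for 5 members that span the range of responses, so that letters known to bind regulators of mitochondrial genes can be set beside the changes described below. Mrpl42 and Mrpl12 had the most negative changes of the large subunit, Mrps12 starts next to a gene that fell with it, Mrpl32 held the most matches to the NRF1 core, and Mrps2 was the member that rose. Each run is the RefSeq window of 250 bases before to 50 bases after the annotated start on GRCm38.p6, read 5′ to 3′ on the gene's strand. Capitals mark matches, on either strand, to the cores of NRF1 (GCGCATGC), of ETS factors (CCGGAAG) and of YY1 (AAGATGGC). The NRF1 core and its reverse complement overlap, so that GCGCATGCGC holds a match on both strands. Mrpl42 lies at chr10:95501900-95502199 on the minus strand, Mrpl12 at chr11:120484387-120484686 on the plus strand, Mrps12 at chr7:28741772-28742071 on the minus strand, Mrpl32 at chr13:14612988-14613287 on the minus strand and Mrps2 at chr2:28467816-28468115 on the plus strand.
Mrpl42: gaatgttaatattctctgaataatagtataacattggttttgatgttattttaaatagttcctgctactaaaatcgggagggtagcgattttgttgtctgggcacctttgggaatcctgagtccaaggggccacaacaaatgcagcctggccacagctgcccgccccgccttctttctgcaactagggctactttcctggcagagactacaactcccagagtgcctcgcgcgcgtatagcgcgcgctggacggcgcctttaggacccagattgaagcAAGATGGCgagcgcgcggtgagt
Mrpl12: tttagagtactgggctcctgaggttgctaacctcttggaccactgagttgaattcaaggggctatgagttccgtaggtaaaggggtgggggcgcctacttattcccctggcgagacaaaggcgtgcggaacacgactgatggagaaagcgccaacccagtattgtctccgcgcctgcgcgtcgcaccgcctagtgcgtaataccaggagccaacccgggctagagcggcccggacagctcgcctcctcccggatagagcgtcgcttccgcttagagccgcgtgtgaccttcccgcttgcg
Mrps12: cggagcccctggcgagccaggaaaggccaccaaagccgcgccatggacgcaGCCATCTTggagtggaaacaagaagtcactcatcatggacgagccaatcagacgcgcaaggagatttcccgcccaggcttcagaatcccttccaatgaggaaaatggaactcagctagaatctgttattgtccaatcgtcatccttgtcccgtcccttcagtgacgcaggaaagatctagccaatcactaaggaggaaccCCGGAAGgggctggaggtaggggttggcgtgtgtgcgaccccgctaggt
Mrpl32: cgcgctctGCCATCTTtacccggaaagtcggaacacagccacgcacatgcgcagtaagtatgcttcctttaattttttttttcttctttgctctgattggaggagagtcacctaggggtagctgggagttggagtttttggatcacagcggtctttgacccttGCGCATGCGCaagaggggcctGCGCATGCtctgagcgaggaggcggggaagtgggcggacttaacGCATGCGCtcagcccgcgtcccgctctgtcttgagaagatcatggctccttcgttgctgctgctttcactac
Mrps2: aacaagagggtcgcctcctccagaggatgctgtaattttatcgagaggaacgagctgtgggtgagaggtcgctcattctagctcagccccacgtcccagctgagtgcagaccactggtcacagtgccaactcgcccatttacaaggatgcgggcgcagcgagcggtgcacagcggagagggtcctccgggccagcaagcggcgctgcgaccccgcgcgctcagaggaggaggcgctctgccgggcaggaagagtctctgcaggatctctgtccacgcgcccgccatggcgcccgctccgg

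Mrpl42 held a YY1 match 27 bases after its start, over the letters ATGG, and no match to NRF1 or ETS letters. Mrpl12 and Mrps2, which moved in opposite directions, both held no match to any of these 3 cores. Mrps12 held a YY1 match at -199 and an ETS match 1 base after the start. Mrpl32 held 4 NRF1 matches, at -87, -85, -66 and -22, and a YY1 match at -242. The table held promoters for 67 of the 76 members. NRF1 letters occurred in 8 of them (11.9%), in 6.53% of 7364 tested genes in the table and in 3.05% of all 27025 genes. ETS letters occurred in 24 members (35.8%), against 22.3% of tested and 9.93% of all genes, and YY1 letters in 12 members (17.9%), against 5.88% and 3.19%. By subunit, NRF1 letters were in 7 of 41 large and 1 of 26 small subunit promoters, ETS letters in 13 and 11, and YY1 letters in 6 and 6. The promoters of 41 members called lower held NRF1 letters in 7, ETS letters in 15 and YY1 letters in 9 cases, against 1, 9 and 3 of the 25 members not called. The NRF1 matches lay in Mrpl10, Mrpl17, Mrpl22, Mrpl32, Mrpl33, Mrpl39, Mrpl9 and Mrps18b. TATA box letters (TATAAA) were in 5 of 67 member promoters (7.46%), near the 7.85% of tested genes. GC box letters (GGGCGG) were in 34 (50.7%), below the 73.0% of tested genes. E-box letters (CACGTG, the same on both strands) were in 5 (7.46%, against 12.4% of tested genes) and CCAAT letters in 26 (38.8%, against 43.4%). A match is a description of the letters and not a shown binding site.

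Among large subunit members the change of greatest size was in Mrpl42, a protein found only in mitochondrial ribosomes (chromosome 10, 95480805 to 95501940, GRCm38). Its level was 55.2, 62.4 and 43.9 RPKM in stem-labelled replicates 1 to 3 and 765, 376 and 1079 RPKM in other replicates 1 to 3. The groups did not overlap, and the other libraries spread widely among themselves while the stem-labelled ones lay close together. The change was -3.64 ± 0.39 (SE, limma adjusted p = 0.000149), -2.28 after the correction for length and GC content and -2.71 on rescaling. Mrpl12 is the counterpart of the bacterial stalk protein that recruits translation factors, and it also binds the mitochondrial RNA polymerase in human cells. It stood at 49.8, 34.1 and 19.5 RPKM in stem-labelled and 553, 263 and 410 RPKM in other libraries, without overlap. It fell by 3.56 ± 0.39 on the log2 scale (adjusted p = 0.000162). Mrpl10, which anchors the stalk, averaged 26.1 ± 5.92 RPKM in stem-labelled and 50.2 ± 14.3 RPKM in other clones (SD, n = 3 each) and changed by -0.90 ± 0.28 (adjusted p = 0.0225, limma). It was not called after the correction for length and GC content (-0.49, adjusted p = 0.0886) or on rescaling (0.02, adjusted p = 0.962).

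Mrpl28, a protein with a bacterial counterpart, had 66.9, 70.5 and 49.7 RPKM in stem-labelled and 391, 434 and 305 RPKM in other libraries. Every stem-labelled library lay far below every other library, and the change was -2.58 ± 0.27 (adjusted p = 0.000145, limma). Mrpl14, the protein on which the assembly and anti-association factor Malsu1 docks, had 27.6, 29.5 and 18.1 RPKM in stem-labelled and 128, 128 and 139 RPKM in other libraries. The other libraries were nearly equal, and the change was -2.37 ± 0.25 (-0.75 after the correction for length and GC content). Malsu1 itself averaged 4.07 ± 0.796 RPKM in stem-labelled and 11.8 ± 4.14 RPKM in other clones and fell by 1.30 on the log2 scale (adjusted p = 0.00255, limma). Malsu1 was called lower after the correction for length and GC content (-1.45, adjusted p = 0.00218) and was not called on rescaling (-0.49, adjusted p = 0.0952). Mrpl52, found only in mitochondria, had 34.7, 30.2 and 21.1 RPKM in stem-labelled and 116, 127 and 162 RPKM in other libraries. Mrpl4, which lines the exit tunnel, had 44.7, 39.5 and 28.7 RPKM in stem-labelled and 139, 165 and 152 RPKM in other libraries. Both separated the groups fully, with changes of -2.21 ± 0.26 and -2.01 ± 0.25. Mrpl20 stood at 22.2 ± 6.87 RPKM in stem-labelled and 237 ± 130 RPKM in other clones (-3.23 ± 0.43), Mrpl54 changed by -2.32, Mrpl1 by -2.07, Mrpl57 by -2.03 and Mrpl13 by -2.0. Mrpl54 missed the threshold after the correction for length and GC content (-0.57, adjusted p = 0.0606), and so did Mrpl2 (-1.58 on the deposited scale, -0.22 corrected, adjusted p = 0.33) and Mrpl32 (-1.66 and -0.22, adjusted p = 0.546).

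At the other end of the large subunit lay members with nearly equal levels. Mrpl44, a protein with the fold of a ribonuclease III, had 10.9, 9.98 and 8.33 RPKM in stem-labelled and 7.55, 10.7 and 14.0 RPKM in other libraries. Mrpl3, the counterpart of a bacterial core protein, had 8.42, 7.54 and 6.75 RPKM in stem-labelled and 6.35, 6.47 and 8.13 RPKM in other libraries. The groups overlapped for both, and the changes were -0.10 ± 0.24 (adjusted p = 0.745) and 0.10 ± 0.20 (adjusted p = 0.668). On rescaling both were called higher, with 0.76 for Mrpl44 (adjusted p = 0.0173), where its sign turned, and 0.93 for Mrpl3 (adjusted p = 0.00259). After the correction for length and GC content the signs of both turned, to 0.30 for Mrpl44 (adjusted p = 0.224) and -0.45 for Mrpl3 (adjusted p = 0.103). Mrpl18, the counterpart of a protein that holds the 5S ribosomal RNA of other ribosomes, averaged 22.2 ± 5.72 RPKM in stem-labelled and 13.9 ± 3.35 RPKM in other clones. Its change of 0.63 ± 0.26 did not pass on the deposited scale (adjusted p = 0.0678), and it passed without stem-labelled replicate 3 (0.83, adjusted p = 0.0373) or other replicate 1 (0.78), on rescaling (1.52) and after the correction for length and GC content (1.12, adjusted p = 0.00318).

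Among small subunit members Mrps34, needed for stable small subunits in mice, had 11.1, 10.3 and 5.57 RPKM in stem-labelled and 112, 129 and 82.3 RPKM in other libraries. It changed by -3.47 ± 0.29 (adjusted p = 0.000117, limma) and shares 63.4% of its exon bases with Mapk8ip3 on the opposite strand and 37.0% with Nme3 on its own strand. The strand used in counting is not given in the sources used here, so reads of these genes cannot be told apart. Mrps12, a protein of the decoding centre, had 27.0, 21 and 13.5 RPKM in stem-labelled and 164, 140 and 115 RPKM in other libraries, and overlaps no other gene's exons. Every stem-labelled library lay far below every other library, with a change of -2.74 ± 0.29 (adjusted p = 0.000148), -1.42 after the correction for length and GC content. Mrps24, whose bacterial counterpart lies at the entry of the messenger RNA, had 62.4, 46.2 and 28.0 RPKM in stem-labelled and 230, 196 and 212 RPKM in other libraries (-2.27 ± 0.31). It shares 15.4% of its exon bases with Urgcp on its own strand. Mrps11, of the platform, had 8.08, 8.16 and 5.63 RPKM in stem-labelled and 29.9, 25 and 37.2 RPKM in other libraries (-1.93 ± 0.23). Mrps26, found only in mitochondria, had 15, 12.6 and 8.66 RPKM in stem-labelled and 40.0, 50.8 and 40.6 RPKM in other libraries (-1.80 ± 0.24). In these 3 members no stem-labelled library reached any other library.

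The 3 paralogs of bacterial S18 all fell, although they take different places. Mrps18c, the one at the bacterial position, had 3.79, 3.98 and 2.80 RPKM in stem-labelled and 23.9, 8.81 and 30.0 RPKM in other libraries (-2.13 ± 0.39). Mrps18b, elsewhere in the small subunit, had 5.41, 4.89 and 4.77 RPKM in stem-labelled and 11.8, 19.6 and 19.1 RPKM in other libraries (-1.53 ± 0.23). Mrps18a, which sits in the large subunit despite its symbol, had 11.1, 10.2 and 8.17 RPKM in stem-labelled and 16, 24.8 and 26.7 RPKM in other libraries (-1.10 ± 0.24). No paralog's groups overlapped, but Mrps18a was not called on rescaling to summed reads (-0.22, adjusted p = 0.456, limma). Mrps18b and Mrps18c share 30.9% and 17.6% of their 50-base stretches with other annotated genes, so part of their reads could be counted elsewhere. Mrps18c shares 23.2% of its exon bases with Gm43511 on its own strand, and Mrps18b 30.5% with Gm16279 on the opposite strand. Mrps30, another protein of the large subunit, had 5.59, 3.71 and 4.02 RPKM in stem-labelled and 5.70, 6.17 and 7.62 RPKM in other libraries, and its change of -0.47 ± 0.21 did not pass (adjusted p = 0.0855). After the correction for length and GC content Mrps30 was called higher (0.74, adjusted p = 0.025). Mrps36, now placed in the oxoglutarate dehydrogenase complex and not in the ribosome, had 11.8, 7.22 and 7.22 RPKM in stem-labelled and 13.4, 12.9 and 19.8 RPKM in other libraries. Mrps36 shares 36.2% of its 50-base stretches with other annotated genes, so the same limit holds for its reads. It changed by -0.76 ± 0.26 (adjusted p = 0.0314), and the call was lost without stem-labelled replicate 2 (adjusted p = 0.112), without stem-labelled replicate 3 (0.106), without other replicate 3 (0.0998), with no filter (0.0741), with upper-quartile scaling (0.0913), on rescaling and after either correction.

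Mrps2, the counterpart of a bacterial protein that joins the small subunit late in assembly, was the single member that rose. It had 11.7, 9.14 and 8.81 RPKM in stem-labelled and 3.77, 5.95 and 5.31 RPKM in other libraries, so that every stem-labelled library was above every other library. The change was 0.86 ± 0.22 (adjusted p = 0.00853, limma), 0.59 after the correction for length and GC content and 1.67 on rescaling, and its exons overlap no other gene. With the replicate number as a block together with that correction its adjusted p was 0.0658. Mrps6 averaged 63.3 ± 3.52 RPKM in stem-labelled and 45.5 ± 3.98 RPKM in other clones without overlap of the groups, and its change of 0.47 ± 0.21 did not pass (adjusted p = 0.0826). It shares 19.9% of its exon bases with Slc5a3 and Gm49711 on its own strand. Mrps7, a protein of the small subunit's head, averaged 31.4 ± 5.64 RPKM in stem-labelled and 23.7 ± 5.4 RPKM in other clones, and the groups overlapped. After the correction for length and GC content both were called higher, Mrps6 by 1.2 (adjusted p = 0.00148) and Mrps7 by 0.97 (adjusted p = 0.00509). Mrps9 had 7.26, 6.58 and 4.85 RPKM in stem-labelled and 6.48, 6.32 and 8.89 RPKM in other libraries, and Mrps10 5.03, 4.76 and 3.76 RPKM in stem-labelled and 5.09, 5.01 and 5.77 RPKM in other libraries. Both had changes of -0.19 that did not pass. Their signs turned on rescaling, where both were called higher, with 0.63 for Mrps9 (adjusted p = 0.0274, limma) and 0.59 for Mrps10 (adjusted p = 0.031). Mrps10 was called lower after the correction for length and GC content (-1.0, adjusted p = 0.00466).

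**Figure D2:**
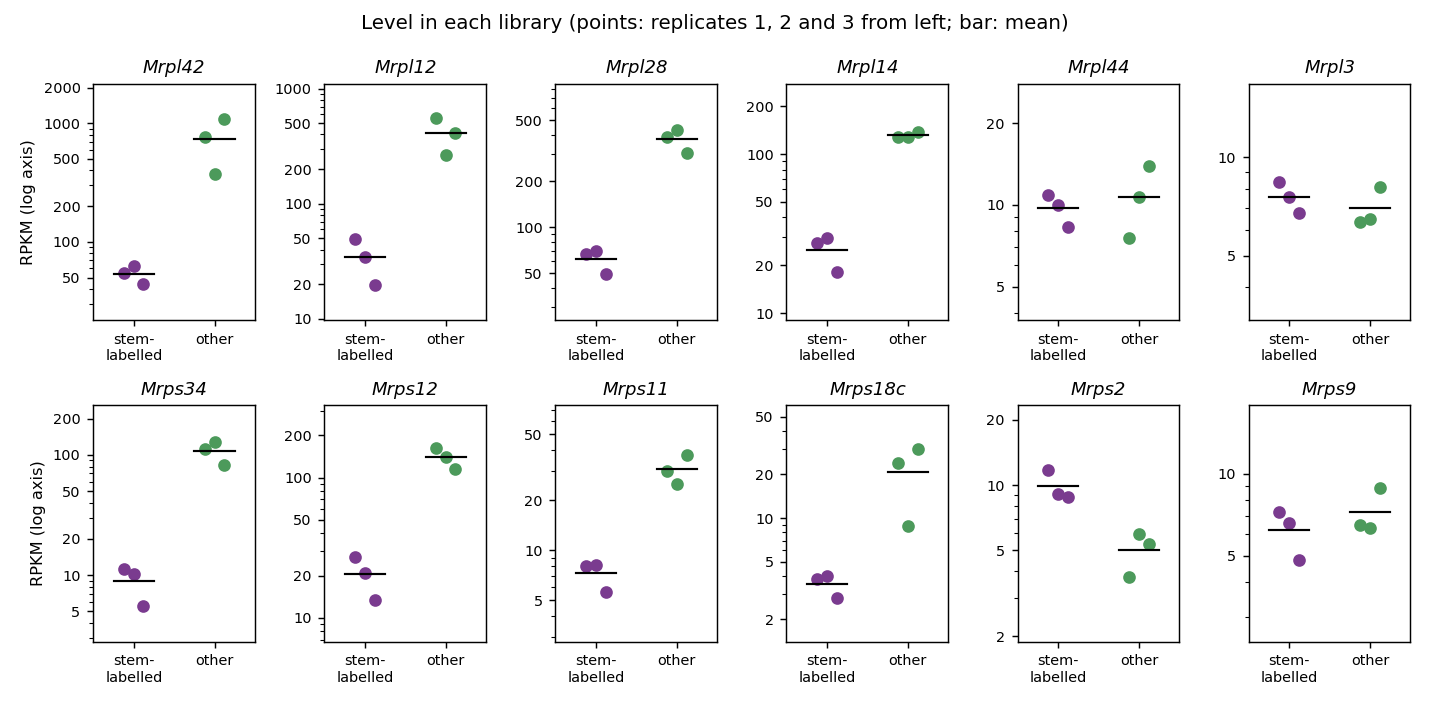
RPKM on a log axis in each library for 12 members, 6 of each subunit by symbol, with stem-labelled clones on the left of each panel and other clones on the right. Points are replicates 1 to 3 from the left and bars are means of 3 libraries. Stem-labelled libraries lie below all other libraries for Mrpl42, Mrpl12, Mrpl28, Mrpl14, Mrps34, Mrps12, Mrps11 and Mrps18c, above them for Mrps2, and overlap them for Mrpl44, Mrpl3 and Mrps9.

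As levels per length, members spanned 0.987 RPKM (Mrpl33) to 75.6 RPKM (Mrps21) on average in stem-labelled clones and 2.58 RPKM (Mrpl19) to 740 RPKM (Mrpl42) in other clones. On the deposited scale no member averaged 100 RPKM or more in stem-labelled clones, and 15 did in other clones. The base of that scale differs between the groups, so a fixed level does not mean the same in both. The 10 highest members of each group shared 6, namely Mrpl2, Mrpl28, Mrpl34, Mrpl42, Mrpl54 and Mrps24. The order at the top differed. Mrps21, at 75.6 ± 18 RPKM in stem-labelled and 102 ± 16.2 RPKM in other clones, ranked 1 in stem-labelled and 15 in other clones, whereas Mrpl42 ranked 5 in stem-labelled and 1 in other clones. The top neighbours in stem-labelled clones, Mrps21, Mrpl2 at 65.8 ± 13.8 RPKM, Mrps6 and Mrpl28 at 62.4 ± 11.1 RPKM, lay within their spread of each other.

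Summed over members, the large subunit reached 995 ± 208 RPKM in stem-labelled and 3896 ± 700 RPKM in other clones (SD, n = 3 each), and the small subunit 499 ± 90.9 RPKM in stem-labelled and 1160 ± 77.2 RPKM in other clones. These sums are on the deposited scale, whose base differs between the groups, whereas a ratio within a library does not depend on that base. The ratio of the sums, large over small, was 2.03, 2.01 and 1.92 in stem-labelled replicates 1 to 3 and 3.44, 2.88 and 3.72 in other replicates 1 to 3, without overlap. Mrpl42, Mrpl12, Mrpl28 and Mrpl20, chosen after their values were seen, made up 17.3 ± 0.651% of the large subunit sum in stem-labelled and 44.7 ± 7.59% in other clones. Without them the ratio was 1.68, 1.65 and 1.60 in stem-labelled and 1.68, 1.83 and 1.99 in other libraries, where replicate 1 of each group overlapped. No small subunit member was left out beside them, so the choice itself narrows the gap. The log2 level of the median large subunit member exceeded that of the median small subunit member by 0.69 ± 0.02 in stem-labelled and 0.62 ± 0.06 in other clones, so this measure has the opposite sign to the difference of -0.62 between the subunits' median changes.

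**Figure D3:**
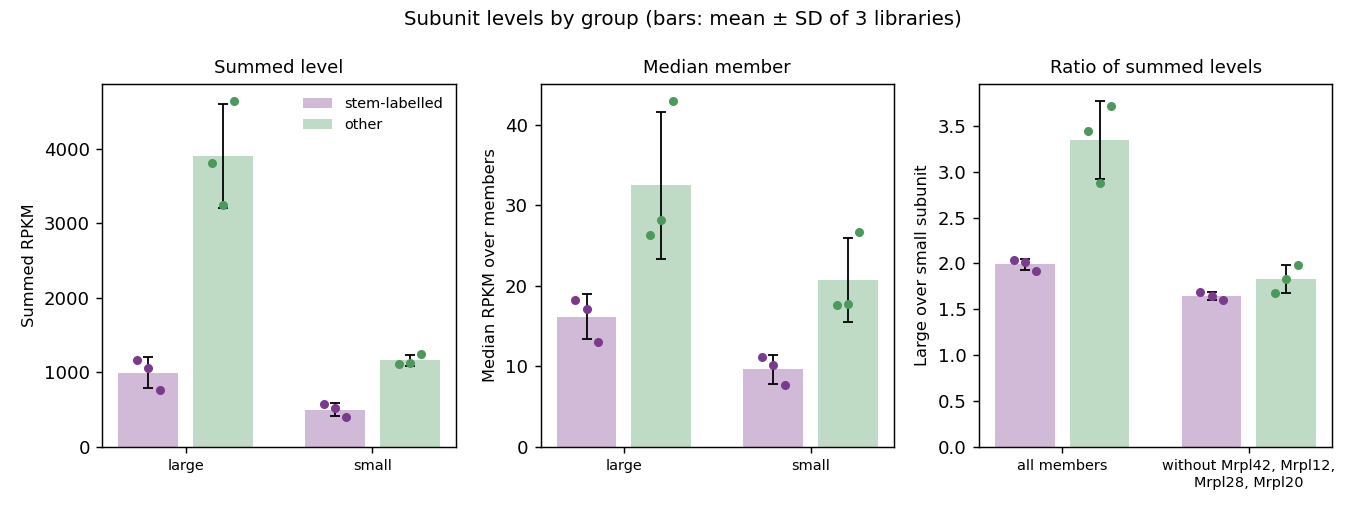
Left, RPKM summed over large and small subunit members; middle, median RPKM over members; right, ratio of summed RPKM, large over small, with all members and without 4 large subunit members. Bars are means and error bars SD of 3 libraries, points are libraries, purple is stem-labelled and green is other. RPKM is on the deposited scale, whose base differs between the groups. The ratio with all members is 1.92 to 2.03 in stem-labelled and 2.88 to 3.72 in other libraries, and without the 4 members, which were picked for their size of change, 1 stem-labelled and 1 other library overlap.

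Gene length moved with the subunit and with the change. The median gene length in the deposited files was 1722 bases for large and 2064 bases for small subunit members, against 3634 bases for all genes tested. Of all genes tested of 57 to 1075 bases, the shortest length class of 10 equal ones, 61.1% were called lower, beside 10 of the 15 members in it. In the next class, up to 1789 bases, 48.5% were called lower, beside 14 of 23 members. Under 2 kb, 17 of 25 large and 7 of 14 small subunit members were lower, against 53.1% of all tested genes. At 2 kb and over, 16 of 22 large and 6 of 15 small subunit members were lower, against 17.0% of all tested genes. Correcting for length alone gave medians of -0.72 for the large and -0.76 for the small subunit, with 36 members lower and 16 higher (22.3% and 28.3% of all genes tested), and correcting for length and GC content gave -0.59 and -0.87, so the order of the subunits turned. The calls were then 24 lower and 4 higher among large and 16 lower and 6 higher among small subunit members, where 22% of all genes tested were lower and 25.8% higher. Whether the corrections remove differences between the kinds of clone along with a technical trend was not tested.

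**Figure D4:**
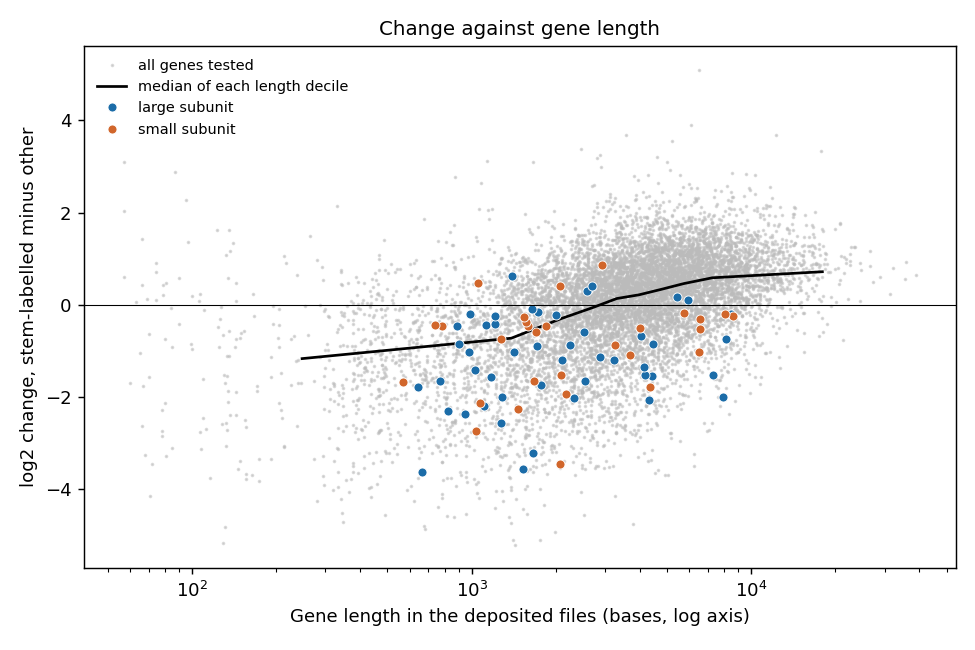
Log2 change, stem-labelled minus other clones, against gene length in bases on a log axis for all 10097 genes tested (grey), large subunit members (blue) and small subunit members (orange), with the median of each of 10 equal length classes as a line. The line climbs with length, from -1.17 in the shortest class to 0.71 in the longest, and most members lie below it.

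**Figure D5:**
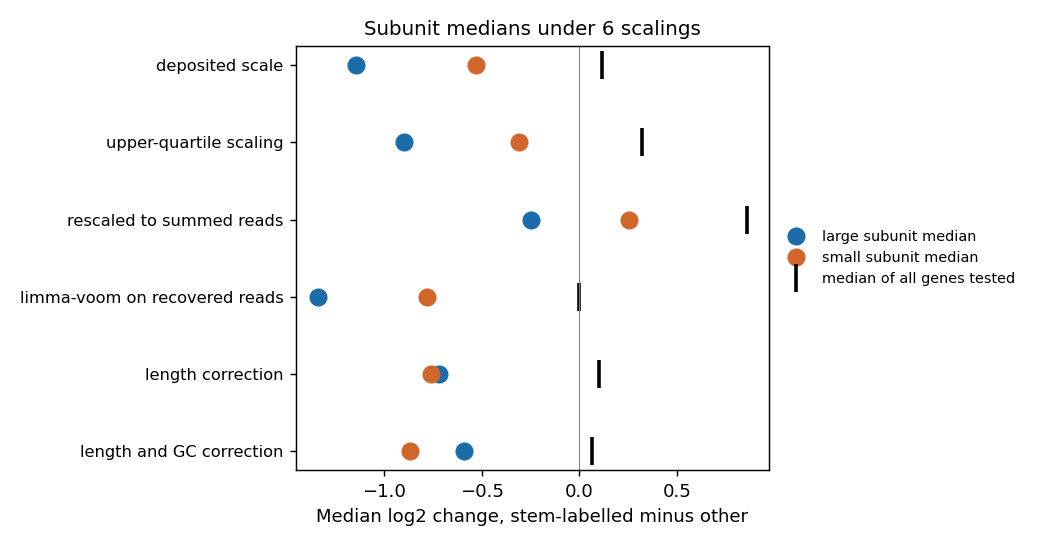
Median log2 change of large subunit members (blue), small subunit members (orange) and all genes tested (black bar) on the deposited scale and under 5 other treatments of the values. The large subunit median is the lower one on the deposited scale (-1.15 against -0.53 for the small subunit), with upper-quartile scaling, on rescaling to summed reads (-0.25 and 0.25) and with limma-voom; after the length and GC correction the small subunit median is lower (-0.87, against -0.59 for the large subunit).

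The calls for 20 members were lower in each of 19 fits, which comprised the deposited scale, the scalings, filters, variance models, corrections and the removal of each library, as were those for 8.34% of all genes tested. Genes with a mean RPKM under 5 could not count, since 1 fit left them out. Median levels in stem-labelled and other clones were 14.8 and 30.2 RPKM for members, against 6.90 and 6.20 RPKM for all genes tested. The limit therefore holds down the share of all genes more than that of the members. Of the 20 members 13 were large subunit members (Mrpl1, Mrpl4, Mrpl12, Mrpl13, Mrpl14, Mrpl20, Mrpl28, Mrpl35, Mrpl38, Mrpl42, Mrpl47, Mrpl52 and Mrpl57) and 7 small (Mrps11, Mrps12, Mrps18b, Mrps18c, Mrps24, Mrps26 and Mrps34). On rescaling, 17 members were called higher, 11 large and 6 small, where 58.7% of all genes tested were higher and 12.3% lower. The next counts are on the deposited scale, where 25.4% of all genes tested were lower. Grouped by place in the ribosome, with Mrps18a and Mrps30 counted as large and Mrps36 left out, 34 of 49 large and 11 of 26 small subunit members fell. By origin, 22 of 30 large subunit members with a bacterial counterpart fell (median -1.38) and 12 of 19 found only in mitochondria (median -0.76). In the small subunit 7 of 16 with a counterpart and 4 of 10 without one fell, with medians of -0.53 and -0.52. After the correction for length and GC content the medians were -0.67 and -0.57 in the large and -0.47 and -0.96 in the small subunit. Restricting to members whose exons overlap no other gene and that share no 50-base stretch with one left 16 large subunit members, of which 15 fell (median -1.50), and 10 small subunit members, of which 3 fell (median -0.42). For the small subunit that is near the 25.4% of all genes tested. After the correction the small subunit median of these 10 was 0.14, of turned sign, and that of the 16 large subunit members was -0.90.

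Members moved together between libraries of 1 group as well. Among stem-labelled libraries, replicate 1 was highest for 60 of 76 members (36.4% of all genes tested) and replicate 3 lowest for 68 (44.9% of all genes tested). Among other libraries, replicate 3 was highest for 51 members (28.8% of all genes tested). Both subunits did so, with stem-labelled replicate 3 lowest for 42 of 47 large and 26 of 29 small subunit members. Reads in members made up 0.402%, 0.361% and 0.315% of reads in genes in stem-labelled and 0.528%, 0.563% and 0.591% in other replicates 1 to 3, without overlap. Cytosolic ribosomal protein genes took 8.93 ± 1.62% of reads in stem-labelled and 21.7 ± 3.95% in other clones, and transcripts of the mitochondrial genome took 1.07 ± 0.138% in stem-labelled and 5.71 ± 2.88% in other clones. Their part in the members' changes was not tested.

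On the deposited scale ribosome proteins without an Mrp symbol went the same way or did not pass. Chchd1, a small subunit protein found only in mitochondria, had 60.8, 39.9 and 27.5 RPKM in stem-labelled and 980, 262 and 1227 RPKM in other libraries, a change of -4.04 ± 0.55 (adjusted p = 0.000395, limma), beyond that of any Mrp member. Gadd45gip1, a large subunit protein near the exit of the tunnel, had 3.98, 4.15 and 3.00 RPKM in stem-labelled and 21.3, 22.3 and 25.4 RPKM in other libraries (-2.35 ± 0.20). Neither gene's groups overlapped. Dap3, the GTP-binding protein of the small subunit, averaged 11.3 ± 1.21 RPKM in stem-labelled and 10.6 ± 1.78 RPKM in other clones, and its change of 0.09 did not pass. Dap3 was called lower after the correction for length and GC content (-0.72, adjusted p = 0.009) and higher on rescaling (0.95, adjusted p = 0.00399). Of 2 such large subunit genes 1 fell, and of 4 such small subunit genes 2 fell and 0 rose, where 25.4% of all genes tested were lower. Rescaling gave 1 lower and 1 higher of the 4 small subunit genes, where 12.3% and 58.7% of all genes tested were. Aurkaip1, which fell on the deposited scale (-1.14), was not called on rescaling (-0.21) or after the correction for length and GC content (-0.28).

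The ribosome's RNAs and partners gave mixed counts, to be read against the 25.4% of all genes tested that were lower and the 29.9% that were higher on the deposited scale. On rescaling these shares were 12.3% and 58.7%, and after the correction for length and GC content 22% and 25.8%. Both mitochondrial ribosomal RNAs fell, mt-Rnr1 to 72.1 ± 4.81 RPKM in stem-labelled, against 1106 ± 803 RPKM in other clones, and mt-Rnr2 to 36.6 ± 9.88 RPKM, against 974 ± 495 RPKM. Their changes were -3.64 and -4.55, or -1.25 and -2.46 after the correction for length and GC content. The libraries were made for messenger RNA, so these values need not follow the amount of ribosomal RNA. Of the 13 protein-coding genes of the mitochondrial genome, whose messenger RNAs the ribosome translates, 11 fell (median -3.90, or -1.58 after the correction for length and GC content). Among 11 translation factors tested 3 fell and 0 rose, against 0 lower and 7 higher on rescaling and 4 lower and 1 higher after the correction for length and GC content. Tufm, the elongation factor that brings transfer RNA, averaged 46.6 ± 8.06 RPKM in stem-labelled and 136 ± 17.3 RPKM in other clones (-1.53 ± 0.24). Tsfm, its exchange factor, averaged 8.56 ± 2.56 RPKM in stem-labelled and 18.3 ± 3.12 RPKM in other clones (-1.04 ± 0.26), and neither was called on rescaling (adjusted p = 0.0579 and 0.573). Of 24 genes for ribosome assembly and ribosomal RNA modification 5 fell, 2 rose and 17 did not pass, against 2 lower and 13 higher on rescaling and 6 lower and 5 higher after that correction. Mpv17l2, needed for assembly in human cells, had 47.2, 54.2 and 28.7 RPKM in stem-labelled and 477, 345 and 270 RPKM in other libraries, without overlap (-3.05 ± 0.32).

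Of 19 mitochondrial aminoacyl-tRNA synthetase and amidotransferase genes, which charge transfer RNAs, 2 fell and 4 rose, against 1 lower and 11 higher on rescaling and 4 lower and 2 higher after the correction for length and GC content. Lars2, for leucine, rose to 35.3, 43.0 and 32.5 RPKM in stem-labelled, against 5.47, 8.12 and 6.70 RPKM in other libraries, a change of 2.29 ± 0.22 (adjusted p = 0.000131, limma) that was called in all 19 fits. Sars2, for serine, and Aars2, for alanine, fell by 1.46 and 1.07 on the log2 scale. Aars2 was not called on rescaling (adjusted p = 0.36). Of 13 genes for mitochondrial transcription and RNA handling 5 fell and 0 rose, against 2 lower and 7 higher on rescaling and 5 lower and 2 higher after that correction. They included the RNA polymerase gene Polrmt (-0.83 ± 0.20, 0.04 on rescaling), Slirp (-2.35 ± 0.47) and Pnpt1 (-1.43 ± 0.28), whereas Tfam and Lrpprc had changes of 0.19 and 0.25 that did not pass. Tfam and Lrpprc were called higher on rescaling (1.02 and 1.04). Lrpprc was called lower after the correction for length and GC content (-0.59), and Tfam was not called (-0.11). Among 8 tested genes for nuclear factors that act on such promoters, 4 rose and 1 fell, against 7 higher and 1 lower on rescaling and 1 higher and 1 lower after that correction. Nrf1, whose product binds the NRF1 letters shown above, averaged 3.55 ± 0.309 RPKM in stem-labelled and 1.66 ± 0.422 RPKM in other clones (0.78 ± 0.19, adjusted p = 0.00702), and its change was -0.0047 after the correction for length and GC content. Esrra, a nuclear receptor, averaged 28.8 ± 8.23 RPKM in stem-labelled and 191 ± 76.0 RPKM in other clones (-2.66 ± 0.33). Of 92 cytosolic ribosomal protein genes tested, 71 fell and 0 rose, against 48 and 5 on rescaling and 56 and 5 after that correction. Their median changes were -1.84 for the large and -1.67 for the small subunit on the deposited scale. These medians were -0.90 and -0.72 on rescaling, and -1.16 and -0.93 after the correction for length and GC content.

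Several members start close to a gene on the opposite strand. Within 1 kb upstream, 19 members had such a neighbour that was tested. Of the 11 members among them that fell, 7 had a neighbour that fell, 2 a neighbour that rose and 2 a neighbour that did not pass. After the correction for length and GC content 2 of those 7 neighbours, Cyb5rl beside Mrpl37 and Sars2 beside Mrps12, were still called lower, each with its member. Klc4, Mitd1, Psma2, Ndufs6 and Apba3 were not called, and Klc4 and Psma2 turned in sign (0.15 and 0.38). Over all genes tested 25.4% were lower on the deposited scale and 22% after that correction. Of the 8 members that did not fall, 1 neighbour fell, 3 rose and 4 did not pass. Mrps12 and Sars2, whose starts lie 172 bases apart, both fell, and Sars2 had 4.35, 3.19 and 3.29 RPKM in stem-labelled and 13.1, 12.2 and 9.86 RPKM in other libraries. Mrpl36 and the complex I gene Ndufs6, with overlapping starts, changed by -0.85 ± 0.28 and -1.50 ± 0.31. After the correction for length and GC content Mrps12 and Sars2 stood at -1.42 and -0.94, both called, and Mrpl36 and Ndufs6 at -0.05 and -0.57, neither called. Mrps18b and Ppp1r10, 45 bases apart, moved in opposite directions, -1.53 ± 0.23 and 1.26 ± 0.20, and so did Mrps18c and the helicase gene Helq, 29 bases apart, at -2.13 ± 0.39 and 1.14 ± 0.22. Helq missed the threshold after the correction for length and GC content (0.48, adjusted p = 0.0617, limma).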

How the data were processed

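Messenger RNA was sequenced in 6 libraries, 3 per group. RPKM values computed by the authors were deposited, per the file headers, in 1 file per library with a gene length beside each value. The submitters' processing notes name Bowtie2 2.0.6, TopHat2 2.0.9 and mm9; counting program, strand and whether pairs were counted are not given in the sources used here. Coordinates are those of GENCODE M21 on GRCm38, matched by gene identifier for 99.6% of genes.

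The tissue label gave each library's group and its title the replicate number. limma 3.58.1 (R 4.3.3) was fitted, with a trend in the variance and no covariate, to log2(RPKM + 1) of all 10097 genes with at least 1 RPKM in at least 3 libraries, and 9082 were not tested. Tests were two-sided, adjusted over all genes tested, with a threshold of 0.05. A change is the difference of mean log2(RPKM + 1), which understates changes of low genes. The 76 members and the lists were chosen with earlier results of these data known. Values per library are given for the 6 members of each subunit with the smallest p, those called higher, the 2 nearest to no change and 8 members of known placement, and other members are named with summary values.

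RPKM times length gave whole multiples of 1 step in each library (100% of values, tolerance 0.01), so reads were recovered. A single read in 1 kb of gene is worth 0.0311 to 0.0993 RPKM. The members' lowest totals over 3 libraries were 343 reads in stem-labelled and 352 in other clones. Corrections regressed each library's deviations from gene means on natural splines (5 degrees of freedom) of log2 length and GC content, known for 99.9% of genes tested. Shared sequence is the share of 50-base stretches of the transcript found in another gene. The neighbour distance and the split by bacterial counterpart were added after the data were seen. In simulated data of 10097 genes with 200 changed and no library trend, the fit recovered 64% of the 2-fold changes, 100% of the 4-fold changes, and wrongly called 22 genes.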

Additional observations from a re-analysis of the deposited data

How the results depend on the processing

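Of 933 values for 52 named genes under 18 alternatives, 836 kept their direction and side of the threshold. A further 32 kept their direction and lost a call, and 25 kept it and gained one. The remaining 40 changed sign, and some of these also gained or lost a call. The number of genes called, 5577, was 3477 with the stricter filter (mean RPKM of 5 or more) and 5212 with the replicate block. The block left 43 members lower, 31 large and 12 small. The labels do not say whether same-numbered libraries share an experiment. Deviations from the group means correlated at -0.125, 0.0255 and -0.0848 between same-numbered libraries. Stem-labelled replicate 3 correlated best with other replicate 1 (0.186). With 3 libraries per group these correlations cannot decide whether the numbers mark pairs. Without each library in turn, members called lower ranged from 35 to 45, those called higher from 1 to 2, large subunit members lower from 24 to 33 and small from 11 to 14, and the large minus small difference of medians from -0.57 to -0.50, against -0.62. It was -0.50 on rescaling, -0.49 with the stricter filter, -1.08 without overlapping or shared genes, and turned to 0.037 with the length correction and 0.28 with the length and GC correction, alone or with the block. Rescaling left 25 members lower (17 large, 8 small) and 17 higher, with medians of -0.25 and 0.25. Members called higher numbered 6 with upper-quartile scaling, 2 with no filter, 16 with the length correction, 10 with the length and GC correction and 3 when the block was added. The large subunit median was -0.59 with the length and GC correction, alone or with the block. Without overlapping or shared genes 15 of 16 large and 3 of 10 small subunit members were lower. These counts are lower because fewer members were counted, with the calls of the same fit. The cause of the other shifts was not tested.

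Among single genes whose sign turned, Mrpl44 (-0.10) ranged from -0.31 without other replicate 1 to 0.094 without other replicate 3, and was 0.14 with upper-quartile scaling, 0.76 on rescaling, 0.65 with the length correction and 0.30 with the length and GC correction. Upper-quartile scaling gave 0.038 for Mrps9 and 0.022 for Mrps10. Rescaling gave 0.63 for Mrps9, 0.59 for Mrps10, 0.32 for Mrps30, 0.11 for Mrps36, 0.49 for Mrps21 and 0.039 for Polrmt. The length correction gave -0.29 for Mrpl3, 0.31 for Mrps30, 0.21 for Mrps36, 0.83 for Mrps21, -0.36 for Dap3, -0.0045 for Tfam and -0.33 for Lrpprc. The length and GC correction, with the same values when the block was added, gave -0.45 for Mrpl3, 0.19 for Mrps9, 0.74 for Mrps30, 0.54 for Mrps21, -0.72 for Dap3, -0.11 for Tfam, -0.59 for Lrpprc and -0.0047 for Nrf1. limma-voom gave -0.017 for Mrpl3 and -0.043 for Dap3, and Dap3 ranged from -0.0101 without other replicate 1 to 0.207 over the libraries left out.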
